A study of Rattus norvegicus and Mus musculus with 22 samples.

Results

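The genes described here are 10 rat genes of the IL-1 family, TNF and the inflammasome, chosen by symbol: Il1b, Il1a, Il1rn, Il18, Il33, Tnf, Nlrp3, Casp1, Pycard and Gsdmd. All 10 were found among the 22081 gene symbols of each of 3 rat count tables. RNA was sequenced from rats exposed to Sugen and hypoxia (SuHx), a model of pulmonary hypertension in which a VEGF receptor blocker is combined with low oxygen. Every group had this exposure, so no comparison is with an unexposed lung. The groups were wild type (WT) and IL6KO rats, which carry an Il6 knockout, as whole lung at day 7 (3 WT and 3 IL6KO libraries), whole lung at day 56 (3 and 3), and CD4-positive lung cells at day 7 isolated with magnetic beads (2 and 2). The labels number the replicates without saying that each is a separate animal, so the p-values measure the spread between these libraries, which may be partly technical.

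IL-1β and IL-18 are made as inactive precursors and are cut by caspase-1 after an inflammasome assembles. In the best known form of this complex, the sensor NLRP3 recruits caspase-1 through the adaptor ASC, the product of Pycard, and gasdermin D then forms the pores through which the cytokines leave the cell. IL-1α and IL-33 act as alarm signals from damaged cells, the product of Il1rn blocks the IL-1 receptor, and TNF acts through its own receptors. Macrophages and monocytes are known sources of IL-1β and TNF, while IL-33 is kept in the nuclei of epithelial and stromal cells in the lung. RNA levels do not measure the cutting or release of these proteins.

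The start-site windows of Il1b, Tnf and Il33 are shown because these genes had the widest differences between CD4 isolates and lung, Il1b and Tnf upward and Il33 downward. Each is a RefSeq window of 300 bases on GRCr8, 5′ to 3′ on the gene's strand, with the letters TATAAA in capitals. The windows lie at chr3:137036532-137036831 (minus strand), chr20:3626435-3626734 (plus strand) and chr1:237134696-237134995 (plus strand, one of 2 Il33 windows).
Il1b: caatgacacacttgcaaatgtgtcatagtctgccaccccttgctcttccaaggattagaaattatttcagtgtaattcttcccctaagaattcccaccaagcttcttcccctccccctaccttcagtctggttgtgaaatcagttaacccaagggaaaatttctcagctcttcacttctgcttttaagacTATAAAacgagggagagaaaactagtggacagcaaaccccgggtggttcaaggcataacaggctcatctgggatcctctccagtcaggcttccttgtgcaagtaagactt
Tnf: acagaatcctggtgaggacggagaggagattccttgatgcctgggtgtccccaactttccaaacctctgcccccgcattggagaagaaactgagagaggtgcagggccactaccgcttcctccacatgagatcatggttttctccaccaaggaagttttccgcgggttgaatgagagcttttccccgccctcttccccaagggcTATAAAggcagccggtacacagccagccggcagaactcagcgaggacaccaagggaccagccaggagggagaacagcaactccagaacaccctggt
Il33: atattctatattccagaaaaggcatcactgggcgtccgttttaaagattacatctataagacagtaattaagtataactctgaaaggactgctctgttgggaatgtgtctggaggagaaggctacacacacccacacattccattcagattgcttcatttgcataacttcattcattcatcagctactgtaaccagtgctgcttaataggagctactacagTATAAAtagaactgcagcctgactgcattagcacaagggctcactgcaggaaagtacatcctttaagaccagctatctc
Both strands were searched for 4 motifs, chosen with the expression values known, in the windows of the 9 members that had one. A gene counted if any of its windows held the motif. TATAAA was present in 5 of the 9 (Il1a, Il1b, Il1rn, Il33 and Tnf), in 4192 of all 27457 genes and in 14.2% of all 33469 windows. TTCNNNGAA was present in 1 (Nlrp3, 2577 of all genes, 8.87% of windows) and TGANTCA in 2 (Il18 and Il1a, 2207 genes, 7.33%). The NF-kB consensus was present in 0 (2240 genes, 7.51%). TATAAA was thus shared by members that were higher and by one that was lower in the isolates, and a match of letters is a description of the window only.

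Library totals were 15011692 to 23590070 counts for day 7 lung, 14415060 to 22961232 for day 56 lung and 11477533 to 12930732 for the isolates. Il6 itself gave few counts: 5, 11 and 6 in WT and 8, 5 and 2 in IL6KO lung at day 7, 6, 6 and 5 against 0, 2 and 3 at day 56, and 48 and 20 against 8 and 17 in the isolates, so Il6 counts overlap between the genotypes in day 7 lung. The labels do not say which part of the gene is deleted, so these counts do not check them. Levels are given as CPM, a gene's count scaled to the total of its library, and are compared between samples, not between genes. The CD4 isolates held T cell RNA, with Cd3e at 449 to 618 CPM against 5.73 to 9.07 CPM in day 7 lung. They also held macrophage and monocyte RNA: Csf1r, the receptor for the macrophage growth factor CSF1, stood at 870 to 1541 CPM in the isolates and at 278 to 301 CPM in day 7 lung. Of the listed macrophage and monocyte markers, 14 of 18 tested were called higher in WT isolates and 15 of 18 in IL6KO isolates. Of all genes, 37.7% and 36.4% were called higher. Their sum went the other way, at 10009 to 15499 CPM in the isolates and 16871 to 21955 CPM in day 7 lung. Rat monocytes and macrophages carry CD4 on their surface. In these bulk samples, fewer cells of a type and less RNA per cell cannot be told apart.

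**Figure D1:**
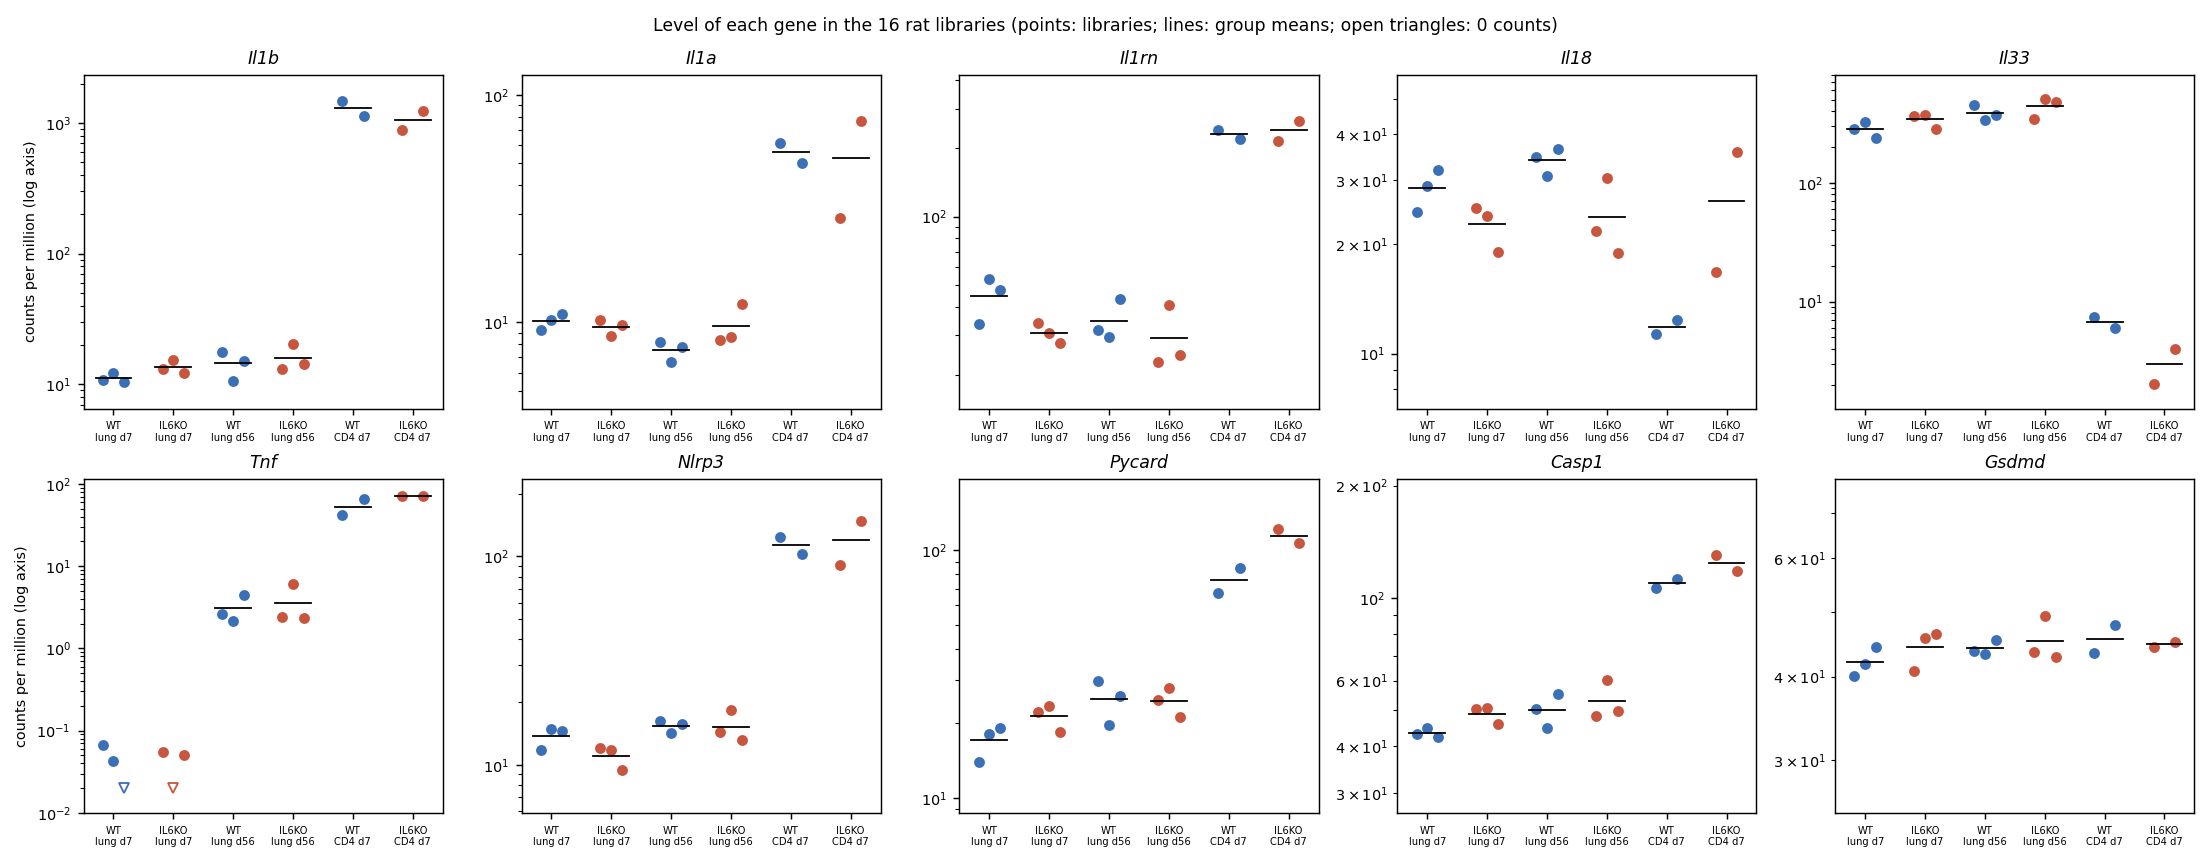
CPM (log axis) of each of the 10 genes in the 16 rat libraries, by genotype, sample type and day (d7, d56); points are libraries, lines are group means and open triangles mark libraries with 0 counts. Il1b, Tnf and Nlrp3 stand far higher in the CD4 isolates than in day 7 lung and Il33 far lower, while WT and IL6KO points lie close together in most panels.

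Loss of Il6 in day 7 lung gave no called change among these genes. Genes were tested with quasi-likelihood F tests in edgeR, p-values were adjusted by the Benjamini-Hochberg method across the whole table, and an adjusted p under 0.05 counted as a call. Of the 9 members tested, 0 were called, against 2.09% of all 14368 genes. An unadjusted p under 0.05 was found for 3 members and for 2045 of all genes. DESeq2 called 1 member and 551 genes. Tnf was not tested because every lung gave 0 or 1 count of it, 2 in all for each genotype.

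Il1rn, the receptor antagonist, had the widest difference. Its levels were 33.4, 53.0 and 47.6 CPM in WT and 33.8, 30.4 and 27.5 CPM in IL6KO lungs. WT library 1 lay inside the IL6KO range, and the other WT libraries lay above it. The log2 fold change was -0.55 (SE 0.16, edgeR adjusted p = 0.144, n = 3 and 3). The call depended on the method and the libraries: the adjusted p was 0.0339 with DESeq2 and 0.0330 with edgeR without WT library 1.

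Il18 was at 24.5, 28.9 and 32.0 CPM in WT and 25.1, 23.9 and 19.1 CPM in IL6KO lungs, with a log2 fold change of -0.33 (SE 0.13, edgeR adjusted p = 0.299). Il1b was at 10.9, 12.3 and 10.5 CPM in WT and 13.1, 15.5 and 12.2 CPM in IL6KO lungs, a log2 fold change of 0.27 (edgeR adjusted p = 0.373). For both cytokines the groups overlapped. Among the inflammasome genes, Nlrp3 had a log2 fold change of -0.31 and Pycard one of 0.32, each with an edgeR adjusted p of 0.356. Casp1 was the only member whose groups did not overlap, at 43.2, 44.8 and 42.4 CPM in WT and 50.2, 50.6 and 46.0 CPM in IL6KO lungs; groups separated in this way for 18.7% of all genes. Its log2 fold change was 0.17 (SE 0.07, edgeR adjusted p = 0.328). Il33, Il1a and Gsdmd had log2 fold changes of 0.28, -0.08 and 0.07.

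Marker levels of other cells were taken beside these. The summed neutrophil markers were 495 to 813 CPM in WT and 401 to 438 CPM in IL6KO lungs, while the median log2 fold change of the 10 tested was 0.17, of the opposite sign to the sum. The summed natural killer cell markers were 31.2 to 46.0 and 86.7 to 105.6 CPM, with 4 of 6 tested called higher. The summed macrophage and monocyte markers, mostly Lyz2, overlapped at 16871 to 19162 and 17074 to 21955 CPM. The part of these cells in the member values was not tested. Of the 75 other genes listed for these pathways, 68 were tested and 1 was called: Tnfrsf1b, the second TNF receptor, at 30.2, 38.3 and 35.6 CPM in WT and 53.4, 54.0 and 45.2 CPM in IL6KO lungs. All IL6KO libraries lay above all WT libraries, and the log2 fold change was 0.55 (SE 0.11, edgeR adjusted p = 0.0401). The call was lost in 5 of 6 fits that left out 1 library, with adjusted p from 0.0171 to 0.145.

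The balance between the antagonist and its ligand was examined as a ratio of counts within each library, which does not depend on scaling. Il1rn per Il1b at day 7 was 3.07, 4.31 and 4.55 in the lungs of WT rats and 2.58, 1.97 and 2.26 in those of IL6KO rats, so the groups did not overlap. The exact two-sided permutation p was 0.1, the smallest that 3 against 3 can give. This ratio was singled out after the values were seen: 7 ratios were formed and 3 genotype comparisons made for each, and the p adjusted over all 21 was 0.42. Of the 14 lung comparisons, 5 did not overlap, each with the same p and adjusted p. The other 4 were Nlrp3 and Il18 per Csf1r at both days. Nlrp3 per Csf1r was 0.0424 to 0.0526 in WT and 0.0335 to 0.0411 in IL6KO lungs at day 7, and 0.0574 to 0.0643 and 0.0396 to 0.0524 at day 56. Il18 per Csf1r was 0.0881 to 0.112 and 0.0679 to 0.0833 at day 7, and 0.124 to 0.140 and 0.0565 to 0.0873 at day 56. Both ratios were thus lower in all IL6KO lungs than in all WT lungs of the same day. At day 56 the denominator differed too, with Csf1r at 247 to 261 CPM in WT and 287 to 348 CPM in IL6KO lungs. Nlrp3 itself had a log2 fold change of -0.03 at day 56, and Il18 one of -0.54. How often ratios of other genes separate the genotypes was not measured. Il1rn per Il1b at day 56 was 1.76 to 2.85 in WT and 1.72 to 2.00 in IL6KO lungs, which overlap.

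**Figure D2:**
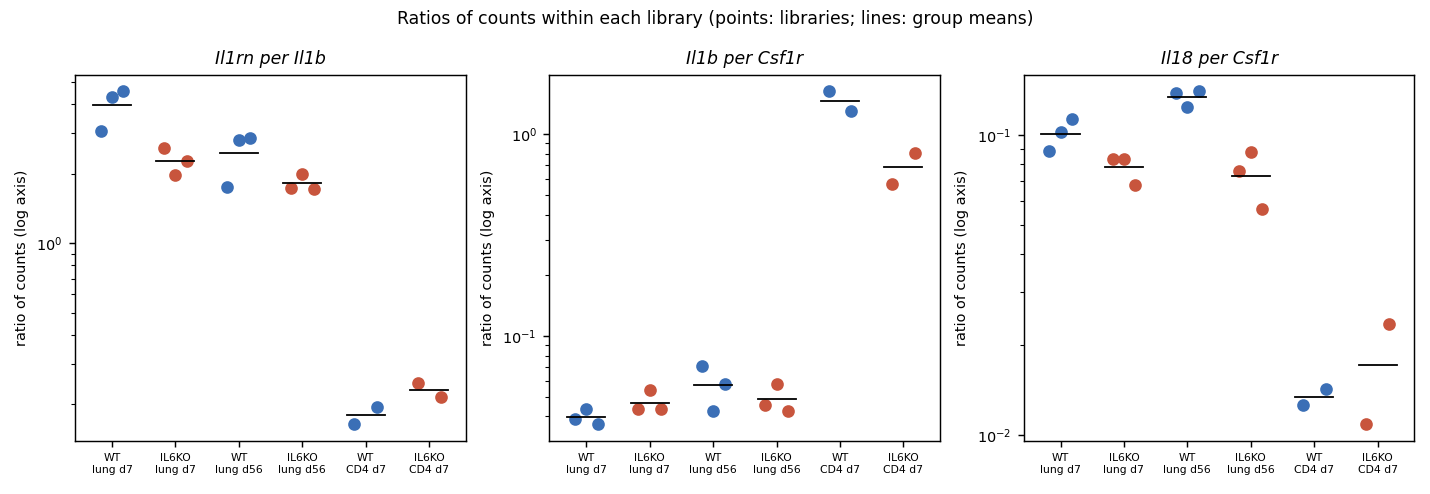
Ratios of counts within each library (log axes) for Il1rn per Il1b, Il1b per Csf1r and Il18 per Csf1r; points are libraries and lines are group means. In day 7 lung Il1rn per Il1b is 3.07 to 4.55 for WT and 1.97 to 2.58 for IL6KO, and Il1b per Csf1r is 0.569 to 1.63 in the CD4 isolates and at most 0.0709 in lung.

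At day 56, again 0 of the 10 members tested were called by edgeR, where 0.0138% of all genes were. An unadjusted p under 0.05 was found for 1 member and for 1649 of all 14475 genes. DESeq2 called 0 members and 167 genes. Il18 had the widest difference, at 34.7, 30.7 and 36.5 CPM in WT and 21.7, 30.4 and 18.9 CPM in IL6KO lungs. All IL6KO libraries lay below all WT libraries, by a narrow margin for IL6KO library 2. The log2 fold change was -0.54 (SE 0.17, edgeR adjusted p = 0.414). Il1a was the other member whose groups did not overlap, at 8.20, 6.66 and 7.77 CPM in WT and 8.37, 8.59 and 12.01 CPM in IL6KO lungs (log2 fold change 0.34, edgeR adjusted p = 0.476). Groups failed to overlap for 16.2% of all genes at this day. Tnf was at 2.59, 2.18 and 4.44 CPM in WT and 2.43, 5.98 and 2.32 CPM in IL6KO lungs, with no separation. The remaining 7 members had log2 fold changes of -0.27 to 0.17, and 0 of the other pathway genes tested were called. Leaving out WT library 3 raised the number of genes called from 2 to 1268, still with 0 members among them.

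The difference between the genotype effects at the 2 days was tested directly in the 12 lung libraries. It was called for 0 of the 9 members other than Tnf and for 0% of 13865 genes with edgeR. Tnf passed the filter only through its day 56 counts, so its value (0.20, SE 1.74) is not counted as a result. An unadjusted p under 0.05 was found for 0 members and 1043 genes, and DESeq2 called 0 members and 45 genes. Without WT day 56 library 3, edgeR called 597 genes and 0 members. Member values ran from -0.36 (Pycard) to 0.42 (Il1a) on the log2 scale.

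In the CD4 isolates, Pycard, the inflammasome adaptor, was the 1 called member of 10, against 6.40% of all genes. It stood at 67.6 and 84.8 CPM in WT and 121.7 and 107.3 CPM in IL6KO isolates. Both IL6KO isolates lay above both WT isolates. The log2 fold change was 0.56 (SE 0.12, edgeR adjusted p = 0.0385, n = 2 and 2). It lost its call without WT library 1, WT library 2 or IL6KO library 1, with adjusted p of 0.237, 0.0770 and 0.0811. Csf1r stood at 870 to 899 CPM in WT and 1532 to 1541 CPM in IL6KO isolates, and Pycard per Csf1r was 0.0752 to 0.0974 and 0.0701 to 0.0790, which overlap.

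Il33 ran the other way, at 7.46 and 6.03 CPM in WT and 2.02 and 4.01 CPM in IL6KO isolates. The groups did not overlap, and the log2 fold change of -1.19 (SE 0.35) did not pass the test (edgeR adjusted p = 0.0898). The alveolar epithelial markers moved with it, summing to 2434 to 3390 CPM in WT and 1252 to 1273 CPM in IL6KO isolates, with 6 of 10 tested called lower, as did the fibroblast and smooth muscle markers, at 156 to 157 and 82.0 to 116 CPM. No listed marker of these cells was at 0 in all isolates. Il33 counts per count of Ager, one of the alveolar markers, were 0.600 to 0.640 in WT and 0.293 to 0.414 in IL6KO isolates. These did not overlap, with an exact two-sided permutation p of 0.333, the smallest that 2 against 2 can give. In day 7 lung this ratio was 0.0892 to 0.176. The part of epithelial and stromal cells in the Il33 value was not tested.

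Il18 was at 11.3 and 12.4 CPM in WT and 16.8 and 35.8 CPM in IL6KO isolates, so that most of its log2 fold change of 1.12 (SE 0.44, edgeR adjusted p = 0.251) came from IL6KO library 2. Without that library the log2 fold change was 0.48; without IL6KO library 1 it was 1.57 and called, and DESeq2 called it with all 4 libraries (adjusted p = 0.0275). The macrophage and monocyte markers summed to 10009 to 10080 CPM in WT and 10978 to 15499 CPM in IL6KO isolates, with 4 of 18 tested called higher. Most of this sum was Lyz2, at 6283 to 6760 CPM in WT and 6441 to 9684 CPM in IL6KO isolates. The part of macrophages and monocytes in the Il18 value was not tested. Il1b was at 1468 and 1132 CPM in WT and 876 and 1231 CPM in IL6KO isolates, which overlap (log2 fold change -0.33, edgeR adjusted p = 0.500). Tnf was at 41.3 and 64.5 CPM in WT and 70.8 and 71.8 CPM in IL6KO isolates (log2 fold change 0.40, edgeR adjusted p = 0.338). Il1a differed more between the 2 IL6KO isolates, 28.7 and 76.9 CPM, than between the genotypes. Without IL6KO library 2, Il1a and Il33 were called lower. Groups did not overlap for 5 members (Il18, Tnf, Casp1, Pycard and Il33) and for 55.4% of all genes.

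**Figure D3:**
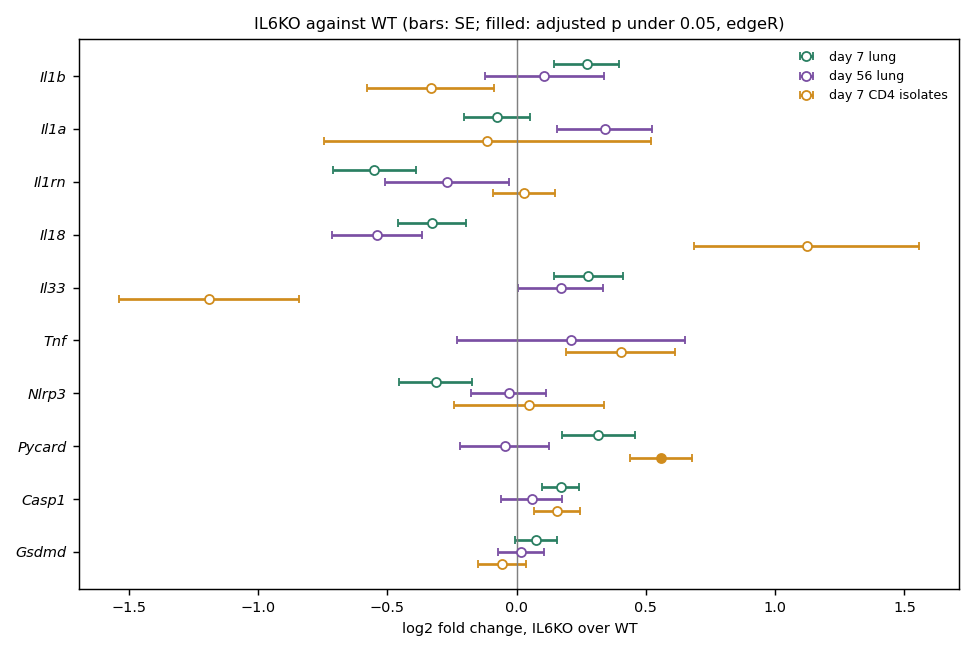
Log2 fold change of IL6KO over WT for each gene in day 7 lung, day 56 lung and day 7 CD4 isolates; bars are 1 SE and filled points have an edgeR adjusted p under 0.05. Pycard in the isolates, at 0.56, is the 1 filled point, and Il18 and Il33 in the isolates lie farthest from 0.

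Of the other pathway genes, 10 of 68 tested were called in the isolates, against 6.40% of all genes; whether these shares differ was not tested. Among the IL-1 and IL-18 receptors, 3 of 8 were called lower and 0 higher, and the other 5 had log2 fold changes of -0.39 to 0.32. Il1r1, the signalling receptor for both IL-1 forms, was at 13.5 and 12.5 CPM in WT and 5.71 and 6.45 CPM in IL6KO isolates (log2 fold change -1.13, edgeR adjusted p = 0.0161). Il18rap, a chain of the IL-18 receptor, was at 78.0 and 81.4 CPM in WT and 43.8 and 43.4 CPM in IL6KO isolates (-0.90, edgeR adjusted p = 0.00337), and Il18r1, its partner chain, fell by 0.51 on the log2 scale. Among sensors and partners, 4 were higher. P2rx7, the ATP-gated channel that triggers NLRP3, was at 3.51 and 3.17 CPM in WT and 15.0 and 12.4 CPM in IL6KO isolates (log2 fold change 2.00, SE 0.21, edgeR adjusted p = 0.00516). Card9, an adaptor of myeloid cells, had a log2 fold change of 0.92, Gbp2 one of 0.60 and Nlrc4 one of 0.59. Irak3, an inhibitor of MyD88 signalling, was higher by 0.55, Mlkl, the pore former of necroptosis, by 0.85, and Map3k7, a kinase downstream of the receptors, fell by 0.37. Of the 10 calls, 8 were lost without WT library 1 and 9 without WT library 2, and the log2 fold changes kept their sign. Over all genes, calls fell from 784 to 76 and 115 without these libraries. Markers of several cell types differed in the same isolates. Called lower were 4 of 11 T cell, 6 of 10 alveolar epithelial, 3 of 9 fibroblast and smooth muscle and 3 of 12 neutrophil markers, and called higher were 4 of 18 macrophage and monocyte markers and 1 neutrophil marker. The median log2 fold change was -0.30 for the T cell list, -1.24 for the alveolar, -0.81 for the fibroblast and smooth muscle, -1.71 for the neutrophil and 0.56 for the macrophage and monocyte list, and their part in the pathway values was not tested.

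**Figure D4:**
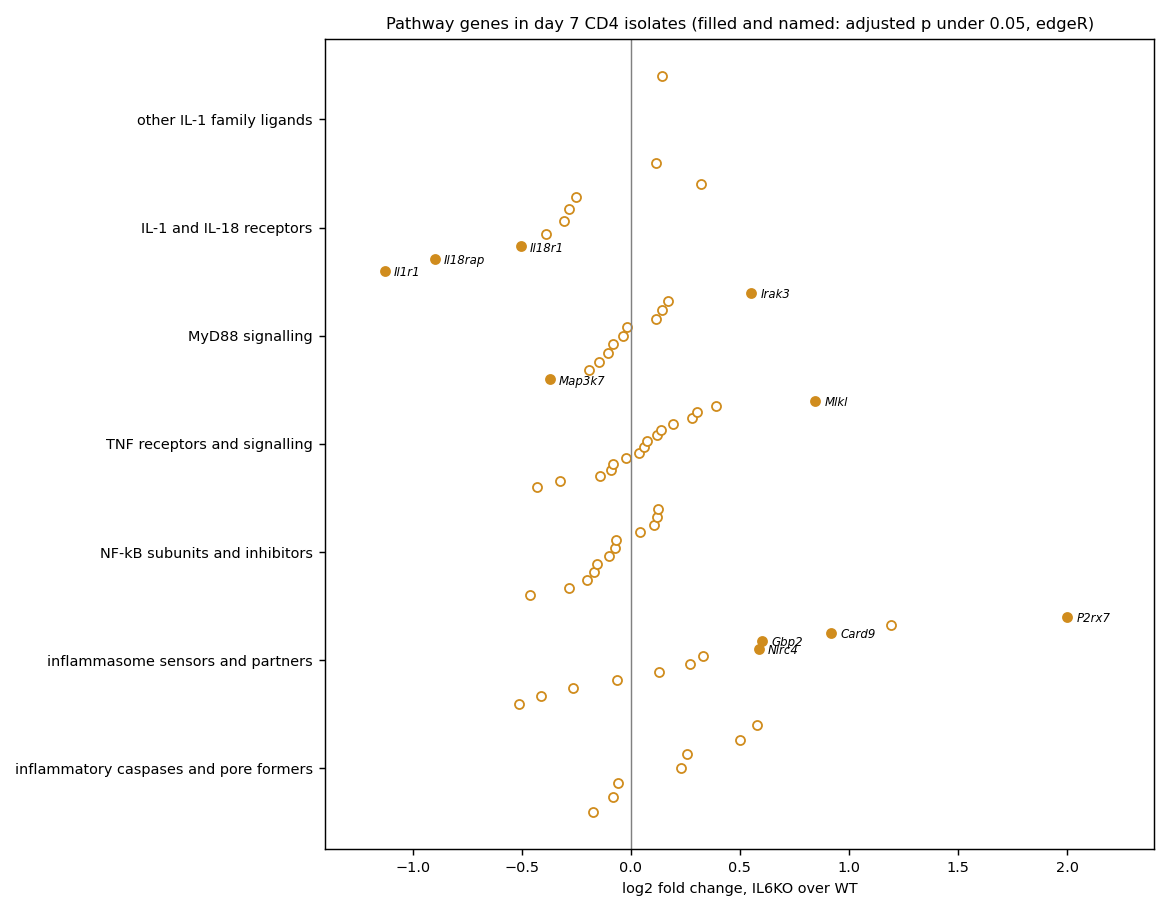
Log2 fold change of IL6KO over WT in day 7 CD4 isolates for the listed pathway genes, by list; each point is a gene, and filled, named points have an edgeR adjusted p under 0.05. The called IL-1 and IL-18 receptor genes lie below 0 and the called inflammasome genes above 0, with P2rx7 farthest at 2.00.

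Between the isolates and whole lung at day 7, nearly every gene differed, so calls carry little weight: 81.4% of all genes were called in WT and 79.5% in IL6KO. Cell type, isolation and count table cannot be told apart here. The median of all genes was -0.12 on the log2 scale in each genotype. Il1b had log2 fold changes of 7.17 (SE 0.19) in WT and 6.47 (SE 0.19) in IL6KO, rising from 10.5 to 15.5 CPM in lung to 876 to 1468 CPM in the isolates. Nlrp3 (3.35 and 3.62), Il1a (2.78 and 2.65), Il1rn (2.68 and 3.17), Pycard (2.46 and 2.62) and Casp1 (1.64 and 1.54) were also called higher in both genotypes. Il1b also differed more than Csf1r: Il1b per Csf1r was 0.0368 to 0.0539 in day 7 lung, 1.30 to 1.63 in WT isolates and 0.569 to 0.803 in IL6KO isolates. Most neutrophil markers were also called higher in the isolates, 10 of 12 in WT (median log2 fold change 4.10) and 7 of 12 in IL6KO (1.62). Over all genes, 37.7% and 36.4% were called higher. The neutrophil sum was 772 to 1500 CPM in WT and 638 to 692 CPM in IL6KO isolates. In day 7 lung it was 495 to 813 CPM in WT, which overlaps the WT isolates, and 401 to 438 CPM in IL6KO. Of the macrophage and monocyte markers, 14 of 18 were called higher in WT and 15 of 18 in IL6KO, while their summed CPM, mostly Lyz2, was lower in the isolates. The part of these cells in the Il1b value was not tested. Il1rn per Il1b was 0.165 to 0.247 in the isolates, against 1.97 to 4.55 in day 7 lung.

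Il33 was far lower in the isolates, at 2.02 to 7.46 CPM against 236 to 373 CPM in lung, with log2 fold changes of -5.07 (SE 0.25) in WT and -6.63 (SE 0.28) in IL6KO. Il18 was lower in WT isolates (-0.96, edgeR adjusted p = 0.00961; lost without either WT isolate) and was not called in IL6KO (0.41, edgeR adjusted p = 0.177). Gsdmd was called higher at 0.42 and 0.21, but its CPM hardly differed, at 40.1 to 46.3 in lung and 43.4 to 47.7 in the isolates. The CPM are scaled to library totals alone, while the fold changes also use TMM factors. These were 1.06 to 1.09 in lung, 0.852 and 0.879 in WT isolates and 0.934 and 0.940 in IL6KO isolates. The IL6KO call was lost with another scaling (RLE, edgeR adjusted p = 0.0578).

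**Figure D5:**
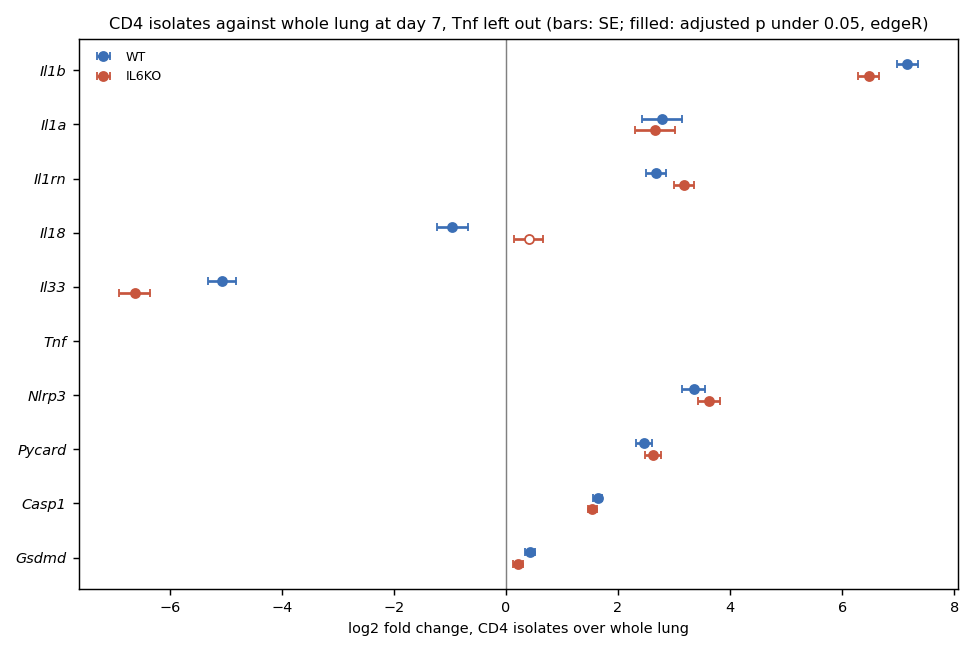
Log2 fold change of CD4 isolates over whole lung at day 7 in WT and IL6KO for 9 genes (Tnf is left out because it had 2 counts per genotype in lung); bars are 1 SE and filled points have an edgeR adjusted p under 0.05. Il1b lies near 7, Il33 below -5, and Il18 on either side of 0.

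Tnf was barely detected in day 7 lung, with 2 counts summed over each genotype. It gave 1316 counts in the WT isolates, 1462 times its share in WT lung (95% interval for counting error only 404 to 12089), and 1667 counts in the IL6KO isolates, 1931 times (534 to 15958). Its share in day 56 lung was 79.1 times (21.6 to 659) that of day 7 in WT and 95.1 times (26.0 to 791) in IL6KO. Tnf entered these fits only through the group where it was high, so its calls are not counted as results. Its chromosomal neighbours Lta and Ltb, also TNF family ligands, gave 3 to 11 and 54 to 162 counts in the day 7 lungs. The lung tables share 20230 of 22081 symbols and were made separately, so day and table cannot be told apart; the day 7 lung and isolate tables share 22071.

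The other members were compared between the days too. Apart from Tnf, 0 of 9 members were called by edgeR in either genotype, where 14.8% of all genes were called in WT and 8.32% in IL6KO. An unadjusted p under 0.05 was found for 3 of the 9 in WT and 1 in IL6KO, and for 4151 and 3060 of all 13865 genes. DESeq2 called 1 of the 9 in WT (Pycard) and 0 in IL6KO, and 2610 and 1572 of all genes. In WT, Pycard (log2 fold change 0.52, edgeR adjusted p = 0.0615), Il33 (0.44, 0.0921) and Il1a (-0.45, 0.0771) were nearest to a call. In IL6KO, Nlrp3 was nearest (log2 fold change 0.42, edgeR adjusted p = 0.106). Of the 67 pathway genes tested, 6 were called in WT and 2 in IL6KO. In WT lung Il18r1, Il18rap, Irak2, Nfkbia and Aim2 were called higher at day 56, by 0.74, 1.25, 0.68, 1.55 and 1.37 on the log2 scale, and Irak2, a kinase of the IL-1 receptor, was also called in IL6KO (0.58). Hmgb1, a nuclear protein that acts as an alarm signal when released, was lower at day 56 by 3.23 in WT and by 3.34 in IL6KO. It stood at 71.2 to 115 CPM in day 7 lung and 8.63 to 10.6 CPM in day 56 lung. Day and count table cannot be told apart, so this need not be a change with time. Lymphocyte markers were higher at day 56 in the same WT comparison: 6 of 6 natural killer cell markers tested (median log2 fold change 1.73), 6 of 7 B cell markers (1.28) and 4 of 10 T cell markers (0.79) were called higher, and 6 of 9 fibroblast and smooth muscle markers lower. Their part in these values was not tested.

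The NF-kB genes were higher in the isolates as a group: 12 of 12 tested in each genotype, with a median log2 fold change of 2.20 in WT and 1.82 in IL6KO, where 37.7% and 36.4% of all genes were called higher. Nfkbia, the inhibitor induced by NF-kB itself, was at 104 to 155 CPM in day 7 lung and 1105 to 1349 CPM in the isolates. Tnfaip3, another induced inhibitor, had log2 fold changes of 5.99 and 5.81. Il1r2, the decoy receptor for IL-1, was at 5.21 to 13.4 CPM in day 7 lung and 90.1 to 121.6 CPM in the isolates, while Il1r1 was lower there, with log2 fold changes of -3.02 in WT and -4.10 in IL6KO.

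The genotype effect in the isolates was compared with that in lung by an interaction term. Il33 was the 1 called member of the 9 other than Tnf (-1.56, SE 0.36, edgeR adjusted p = 0.0296), against 6.42% of all genes. Tnf passed the filter only through the isolates, so its value (0.31, SE 1.54) is not counted as a result. Il33 overlapped between the genotypes in day 7 lung, at 236 to 324 CPM in WT and 283 to 373 CPM in IL6KO, while both IL6KO isolates lay below both WT isolates. Il18 (1.36, edgeR adjusted p = 0.0692) and Il1b (-0.69, edgeR adjusted p = 0.116) did not pass. Pycard, the member called between the genotypes in the isolates, did not pass either (0.16, SE 0.21, edgeR adjusted p = 0.699). The Il33 call was lost in 5 of 10 fits that left out 1 library, with adjusted p up to 0.137 (without WT isolate 1).

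Within the 12 lung libraries, centred by table, the genes most like each of 4 members were found by Pearson correlation of log2(CPM + 1) among 10865 genes with a mean of at least 5 CPM in each table. For Il1b these were Plpp6 (0.97), Mlkl (0.93) and Rgs14 (0.90). For Nlrp3 they were Ptafr (0.91), Lcn2 (0.89) and Phldb3 (0.89). For Il18 they were Scnm1 (0.94), Dusp2 (0.94) and Bgn (0.93), and for Il33 Acsf2 (0.94), Ets1 (0.93) and Pyroxd1 (0.93). They are the highest of many correlations over libraries that share their depth, and are a description only.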

How the data were processed

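RNA-seq of 16 rat libraries was used from 3 count tables; 6 mouse spleen libraries were not used here. The deposited values are raw counts per gene symbol, as the whole numbers and unequal library totals show. No aligner, counter or rat build is given in the sources used here. The submitters' processing notes list GRCm38, a mouse build, also for the rat samples, so no coordinate was taken from the count tables.

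Each comparison was fitted over all genes with edgeR 4.0.16 in R 4.3.3 (filterByExpr, TMM, robust quasi-likelihood), with adjusted p under 0.05 as the call. The standard error is the log2 fold change over the square root of F. Within-table comparisons used that table's libraries; comparisons across tables used the shared symbols. Alternatives were RLE scaling, DESeq2 1.42.0, no filter, a replicate block and leaving out each library. The fits were tested on simulated data. Count ratios were compared by exact permutation tests.

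All 10 members are named; of each pathway list, up to 4 called genes per comparison by smallest p. The members, pathway and marker lists and motifs were chosen with earlier results of these data known, and the ratios after the values were seen. Replicates of a group differed beyond sampling noise (chi-square per degree of freedom at least 8.39), so none was taken as a duplicate. Intervals cover counting error only.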

Additional observations from a re-analysis of the deposited data

Results flagged for a closer look

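The genotype effect on Il33 differed between sample types at day 7, by -1.56 on the log2 scale (SE 0.36, edgeR adjusted p = 0.0296, interaction over 10 libraries). The call was lost in 5 of 10 fits that left out 1 library, with adjusted p up to 0.137, and Il33 overlapped between the genotypes in lung. Il33 was at 283, 324 and 236 CPM in WT and 365, 373 and 283 CPM in IL6KO lungs, and at 7.46 and 6.03 CPM in WT and 2.02 and 4.01 CPM in IL6KO isolates. These isolate levels rest on 87 and 78 counts for WT and on 24 and 46 for IL6KO. The summed alveolar epithelial markers were 2434 to 3390 CPM in WT and 1252 to 1273 CPM in IL6KO isolates, and overlapped between the genotypes in day 7 lung at 27252 to 30889 and 25453 to 30256 CPM. Il33 per Ager, one of these markers, was 0.600 to 0.640 in WT and 0.293 to 0.414 in IL6KO isolates. The part of alveolar epithelial cells in the result was not tested.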

How the results depend on the processing

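RLE scaling and no filter left every count of called members within 1.5 times. Tnf is left out between the days, where its calls are not counted as results. DESeq2 called 1 member in day 7 lung (Il1rn) and 2 in the isolates (Il18 and Pycard). It called 1 between the days in WT (Pycard) and 2 in the sample type interaction (Il18 and Il33). Leaving out 1 library gave 0 to 1 called members in day 7 lung. Between the days in WT, Pycard was called without WT day 56 library 2 and Il1a without IL6KO day 56 library 3. In the isolates and the sample type interaction, the called members changed with the library left out. The cause was not tested. Genes called numbered 300 in day 7 lung (DESeq2 551), 2 at day 56 (DESeq2 167, no filter 7) and 0 for the day interaction (DESeq2 45). Leaving out 1 library moved these to 94 to 195 in day 7 lung for each library but IL6KO 3 (372), to 1268 at day 56 and 597 for the day interaction without WT day 56 library 3, and from 784 to 76 and 115 in the isolates without WT isolates 1 and 2. Day calls went from 2048 to 1235, 1308 and 1324 without WT day 7 libraries 2 and 3 and WT day 56 library 1 and to 3656 without WT day 56 library 3, and in IL6KO from 1153 to 706 and 704 without IL6KO day 7 libraries 1 and 2. Sample type interaction calls went from 949 to 586, 514, 341 and 528 without WT lung 2, IL6KO lung 2, WT isolate 1 and IL6KO isolate 2.

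Whether replicate numbers pair the samples was not settled. In day 7 lung, same-numbered WT and IL6KO libraries correlated at 0.08, 0.13 and 0.32, and differently numbered ones at -0.24 to 0.16. At day 56 the values were -0.21, -0.10 and -0.01 for the same number and -0.07 to 0.18 for different numbers. In the isolates they were 0.02 and -0.02, which must mirror each other when 2 libraries per group are centred, so they cannot decide it. With a replicate block, 1 member was called in day 7 lung (Il33, log2 fold change 0.28, edgeR adjusted p = 0.0487), and the genes called went from 300 to 543 in day 7 lung, from 2 to 0 at day 56 and from 784 to 1074 in the isolates.

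Uncalled fold changes near 0 changed sign when 1 library was left out. Every member tested in a comparison was followed through its alternatives: all 10, except for Tnf in day 7 lung, which was not tested. At day 56, IL6KO against WT ranged over -0.092 to 0.28 for Il1b, -0.36 to 0.55 for Tnf, -0.16 to 0.071 for Nlrp3, -0.032 to 0.13 for Casp1, -0.19 to 0.092 for Pycard and -0.034 to 0.063 for Gsdmd. In the isolates it ranged over -0.995 to 0.43 for Il1a, -0.13 to 0.17 for Il1rn, -0.34 to 0.35 for Nlrp3 and -0.11 to 0.00028 for Gsdmd. The day interaction ranged over -0.36 to 0.019 for Il1b, -0.22 to 0.035 for Il33 and -0.35 to 0.63 for Tnf. Day 56 against day 7 ranged over -0.00086 to 0.079 for Gsdmd in WT; in IL6KO it ranged over -0.014 to 0.28 for Il1b, -0.21 to 0.067 for Il1a, -0.40 to 0.016 for Il1rn, -0.18 to 0.16 for Il18, -0.020 to 0.11 for Casp1 and -0.066 to 0.032 for Gsdmd, and with no filter Il18 was at -0.0017. Isolates against lung in IL6KO ranged over -0.20 to 0.88 for Il18. The sample type interaction ranged over -1.004 to 0.41 for Il1a, -0.048 to 0.72 for Tnf, -0.11 to 0.57 for Nlrp3 and -0.18 to 0.0019 for Casp1. Where 1 isolate was left, it was assumed to vary like the other group. Low counts limit Tnf in day 7 lung and Il33 in the isolates.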
